A study of Homo sapiens with 8 samples.

Results

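The genes of the G2/M transition and the mitotic spindle form a set of 45 among the 23391 genes counted in DU145 cells, a human prostate cancer cell line. The members were taken by symbol from a list of cyclins, mitotic kinases, checkpoint proteins, kinetochore proteins, kinesins, condensin subunits and their regulators. KIFC1 was set apart for an unusual difference between the cell pools in its response to DY131. Its values are therefore given as a description without a test, and all counts of members below refer to the other 44.

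The DU145-pc3.1 pool carried empty pcDNA3.1-zeo(+) and the DU145-Esrrb pool an Esrrb expression vector, both by stable transfection and selection with Zeocin. Both pools were left untreated or incubated with 3 μM DY131, a synthetic agonist of the estrogen-related receptors Esrrb and Esrrg. The length of the incubation, and whether untreated cells received a vehicle, are not given in the sources used here. Each of the 4 groups (DU145-pc3.1, DU145-Esrrb, DU145-pc3.1+DY131 and DU145-Esrrb+DY131) was sequenced in 2 libraries, and the p-values measure the spread between these libraries. All groups share the transfection, the selection, the charcoal-stripped serum and, by the paper's methods, growth to confluence. The paper says that 2 biological replicates of transfected cells were pooled for each vector, and also speaks of 2 independent replicates. Whether the 2 libraries of a group stem from 1 pool is therefore unclear. With 1 pool for each vector the pool and the vector cannot be told apart.

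In dividing cells, cyclin B bound to CDK1 drives entry into mitosis, and the anaphase-promoting complex ends it by marking cyclin B and securin for degradation. Many genes of this program are repressed in resting and G1 cells by the DREAM complex and activated in G2 and mitosis by MuvB with B-MYB and FOXM1, through promoter elements named CHR (cell cycle genes homology region) and CCAAT box. Their mRNA is therefore widely read as a sign of cycling cells, and in a bulk culture fewer cells in G2/M and less mRNA in each cell cannot be told apart.

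Promoter windows from RefSeq (GRCh38.p14), which run from 250 bases before to 50 bases after a gene's start, were at hand for 38 of the 45 members. None was at hand for AURKA, BIRC5, BUB3, FOXM1, TPX2, TTK and UBE2C. The CHR, spelled TTTGAA, was found on either strand in 27 of the 38 windows (71.1%), and in 8.99% of the windows of 10107 tested genes. The variant TTTAAA was found in 11 of them (28.9% against 7.21%), and 33 held at least 1 of these spellings. CCAAT was found in 28 of them (73.7% against 36.4%), and 20 held CCAAT together with TTTGAA (52.6% against 3.95%). In 18 members a TTTGAA copy began within 50 bases before the start. The element AAGGTCA, to which estrogen-related receptors bind, was in 0 of the 38 windows and in 2.30% of all. AURKB, BUB1, CCNA2, CDC25B and SMC2 held neither CHR spelling. A match is a string of letters and not a measured site.

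The stretches below show how these elements lie in some of the members. The CHR, its variant and the CCAAT box are in capitals, on either strand, and in MKI67 and PTTG1 neighbouring matches overlap.
CDC25C, chr5:138331814-138331904, minus strand: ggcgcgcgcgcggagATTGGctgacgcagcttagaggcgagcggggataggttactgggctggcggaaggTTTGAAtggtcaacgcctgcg
PLK1, chr16:23678726-23678880, plus strand: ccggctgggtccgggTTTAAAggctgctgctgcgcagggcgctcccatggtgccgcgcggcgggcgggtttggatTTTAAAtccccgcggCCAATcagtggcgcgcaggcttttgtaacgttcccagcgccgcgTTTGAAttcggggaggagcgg
MKI67, chr10:128126428-128126536, minus strand: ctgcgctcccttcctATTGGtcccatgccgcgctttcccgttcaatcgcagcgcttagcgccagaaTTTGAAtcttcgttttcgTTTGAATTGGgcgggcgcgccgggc
PTTG1, chr5:160421737-160421846, plus strand: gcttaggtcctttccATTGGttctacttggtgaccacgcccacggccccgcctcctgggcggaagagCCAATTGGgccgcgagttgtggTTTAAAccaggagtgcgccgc
NDC80, chr18:2571539-2571574, plus strand: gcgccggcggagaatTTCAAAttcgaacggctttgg
KIFC1, chr6:33391733-33391847, plus strand: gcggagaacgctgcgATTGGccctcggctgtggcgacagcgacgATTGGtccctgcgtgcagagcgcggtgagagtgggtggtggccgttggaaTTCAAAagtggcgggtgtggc
The CDC25C, PLK1 and MKI67 stretches hold CCAAT and TTTGAA, PTTG1 holds TTTAAA instead, and NDC80 holds TTTGAA without CCAAT.

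Gene counts summed to between 7858743 and 11551690 reads a library and were lowest in the DU145-Esrrb+DY131 libraries. ESRRB went with the labelled pool in every library, at 8.83 and 9.10 cpm in DU145-Esrrb, 13.7 and 16.2 cpm in DU145-Esrrb+DY131 and at most 0.286 cpm in the 4 DU145-pc3.1 libraries. Epithelial keratins were high (KRT8 1064 to 1627 cpm), whereas KLK2 and KLK3, kallikreins of the prostate epithelium, had no reads. Of 10 markers of leukocytes, endothelium and fibroblasts, none exceeded 5.70 cpm. Levels are given as cpm, read counts scaled to a library's effective size by edgeR, and differences as log2 fold changes ± SE from edgeR's quasi-likelihood fit. A member passed the test at a Benjamini-Hochberg adjusted p under 0.05 over the 13856 tested genes, and was called altered where the log2 fold change was also at least 1 in size.

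The members were well covered. Apart from KIFC1, no member fell below 93 reads in any library, and TOP2A reached 9519 reads. Per kilobase of transcript, the mean level in DU145-pc3.1 cells was highest for BUB3, a checkpoint protein, at 153 cpm per kb, and lowest for KIF15, a spindle kinesin, at 6.67 cpm per kb. The same genes marked the ends of the range in the other 3 groups. The median over members was 42.9 cpm per kb in DU145-pc3.1, 43.9 in DU145-Esrrb, 53.5 in DU145-pc3.1+DY131 and 44.3 in DU145-Esrrb+DY131.

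**Figure D1:**
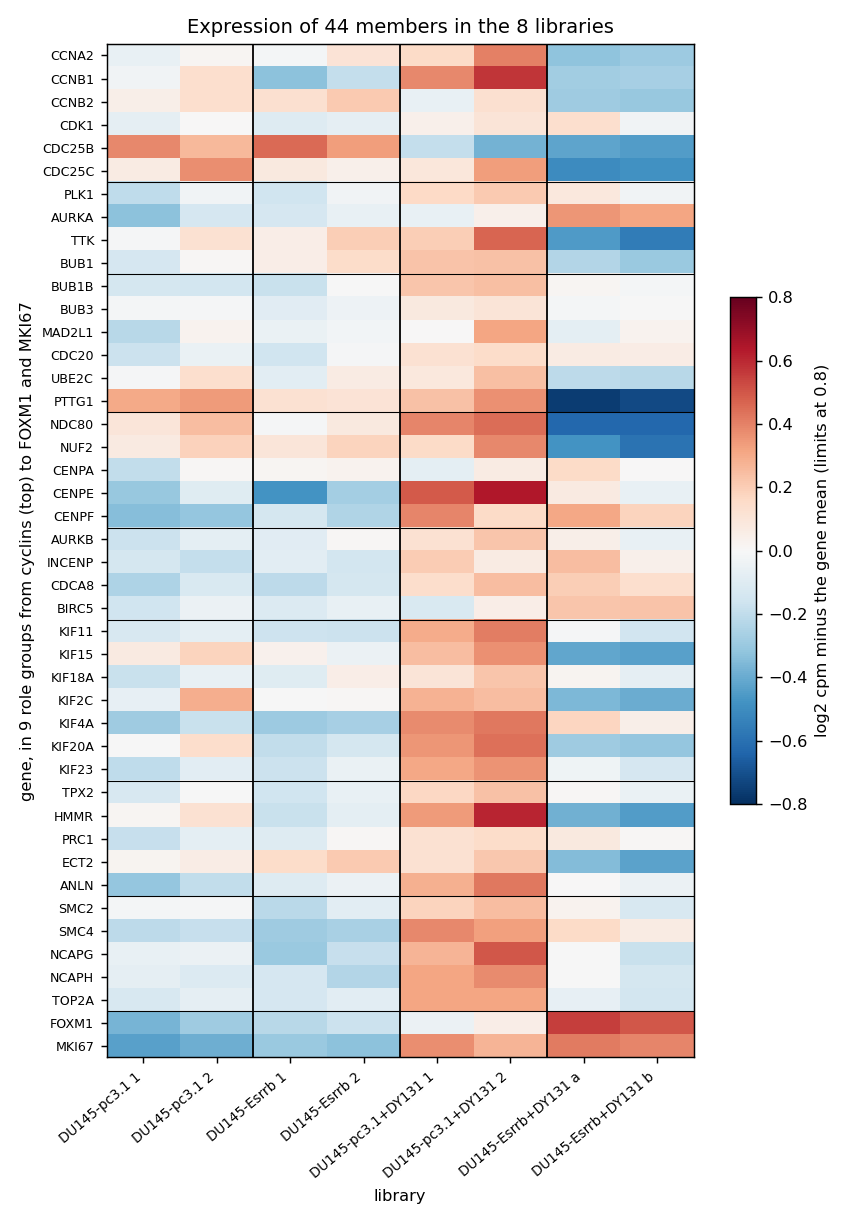
Expression of the 44 members in the 8 libraries, as log2 cpm minus the mean of the gene (colour, red above and blue below the mean), with genes in rows by role and libraries in columns by group. The DU145-pc3.1+DY131 columns are red for most genes, whereas in the DU145-Esrrb+DY131 columns PTTG1, NDC80 and NUF2 are blue and FOXM1 and MKI67 red.

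The comparison of DU145-Esrrb with DU145-pc3.1 cells asks whether Esrrb alone alters these genes. Of the 44 members 2 passed, both lower with Esrrb, namely CCNB1, cyclin B1, and KIF20A, a kinesin of the central spindle. Over all tested genes, 2.5% passed as lower and 1.68% as higher. CCNB1 was at 217 and 244 cpm in DU145-pc3.1 and at 177 and 194 cpm in DU145-Esrrb cells (log2 fold change -0.32 ± 0.07, adjusted p = 0.0225). Its libraries did not overlap between the groups, as was so for 19 members and 51.6% of all tested genes in this comparison. KIF20A was at 178 and 197 cpm in DU145-pc3.1 and at 156 and 162 cpm in DU145-Esrrb cells (-0.24 ± 0.06, adjusted p = 0.0415). Which members passed depended on the setting: between 0 and 5 fell and between 0 and 3 rose when single libraries were left out.

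The values of most members lay close to 0. Over all members but KIFC1, the log2 fold changes ranged from -0.32 to 0.18 with a median of 0.01. In edgeR's fit 0 members rose or were called altered (0.577% of all tested genes were altered). An unadjusted p under 0.05 was reached by 9. The share of all tested genes at that threshold was not counted, so this count is no result about the members as a set. ANLN, the actin-binding anillin of the cleavage furrow, had the highest value, 0.18 ± 0.06 (adjusted p = 0.144). All 5 members of the condensin and topoisomerase group had values below 0 and all 4 mitotic kinases above 0, none of which passed.

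DY131 in DU145-pc3.1 cells, which have almost no ESRRB reads, was followed by a rise of most of the program. Of the 44 members 31 (70.5%) rose, 1 fell and 12 did not pass, where 18.9% of all tested genes rose and 18.5% fell. The median log2 fold change was 0.28 for the members and -0.0026 for all tested genes, and 40 members had a value above 0. The sizes were modest, since 0 members were called altered by edgeR (4.19% of all tested genes were) and the highest value, of CENPE, was a fold change of 1.69. The paper, with its own edgeR exact test and cutoffs, reports no gene altered by DY131 in cells without Esrrb. It concludes that the activity of DY131 depends on Esrrb. Why the calls over all genes differ from those of the paper was not tested. With DU145-pc3.1 replicate 1 left out, 20 members rose. The 2 DU145-pc3.1+DY131 libraries agreed least with each other, with a chi-square per degree of freedom over tested genes of 7.34. It was 2.67 in DU145-pc3.1, 1.84 in DU145-Esrrb and 1.30 in DU145-Esrrb+DY131 cells. The fit uses 1 spread for each gene across the 4 groups. The p-values of comparisons with DU145-pc3.1+DY131, the interaction included, therefore do not reflect its wider spread.

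CENPE, the kinesin that moves chromosomes to the spindle equator, was at 80.6 and 93.1 cpm in DU145-pc3.1 and at 139.8 and 155 cpm in DU145-pc3.1+DY131 cells (0.76 ± 0.08, adjusted p = 7.36e-06). MKI67, the proliferation marker Ki-67, went from 433 and 448 cpm to 757 and 707 cpm (0.73 ± 0.06, adjusted p = 2.6e-07). KIF4A, a chromosome-bound kinesin, went from 49.8 and 53.5 cpm to 78.97 and 81.1 cpm (0.63 ± 0.07, adjusted p = 1e-05). In each of these genes both treated libraries lay above both untreated ones. In this comparison the libraries did not overlap, in either direction, for 35 members and 65.5% of all tested genes.

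CDC25B, a phosphatase that activates CDK1 at the start of mitosis, was the member that fell. It was at 205 and 188 cpm in DU145-pc3.1 and at 137 and 121 cpm in DU145-pc3.1+DY131 cells (-0.60 ± 0.07, adjusted p = 1.15e-05). Its partners in this group went other ways, because CCNA2 (0.30) and CCNB1 (0.42), cyclins A2 and B1, rose, and CCNB2 (-0.05), CDK1 (0.11) and CDC25C (-0.02) did not pass.

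By role, all 5 condensin and topoisomerase genes rose, from SMC2 at 0.22 to SMC4 at 0.55, as did all 4 mitotic kinases within a narrow range, from AURKA at 0.22 to PLK1 and BUB1 at 0.29. Of the kinesins 5 of 7 rose, of the spindle assembly and cytokinesis genes 4 of 5, of the chromosomal passenger complex 3 of 4, of the kinetochore genes 3 of 5 and of the checkpoint and anaphase genes 3 of 6. FOXM1, the transcription factor of the program, rose by 0.33 ± 0.06. The members that did not pass included PTTG1, securin, at -0.02 ± 0.07, NUF2, a subunit of the kinetochore NDC80 complex, at 0.14 ± 0.09, and BIRC5, survivin of the passenger complex, at 0.07 ± 0.07.

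In DU145-Esrrb cells the members split after DY131. Of the 44, 10 rose, 14 fell and 20 did not pass, while 29.2% of all tested genes rose and 29.5% fell. These shares of members, 22.7% and 31.8%, are near or under those of all genes, and the median of the members was 0.05. None of the 44 was called altered in edgeR's fit, against 12% of all tested genes. At an unadjusted p under 0.05 there were 25 members. The share of all tested genes at that threshold was not counted, so this count is no result about the members as a set.

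The 3 members with the largest rise were FOXM1, MKI67 and CENPF. FOXM1 was at 197 and 204 cpm in DU145-Esrrb and at 337 and 324 cpm in DU145-Esrrb+DY131 cells (0.72 ± 0.06, adjusted p = 9.12e-08). MKI67 went from 476 and 466 cpm to 783 and 769 cpm (0.72 ± 0.06, adjusted p = 5.45e-08). CENPF, a large protein of the outer kinetochore, went from 259 and 241 cpm to 354 and 323 cpm (0.44 ± 0.07, adjusted p = 0.00013). The treated libraries lay above the untreated ones without overlap in all 3 genes. In this comparison the libraries did not overlap, in either direction, for 31 members and 82.2% of all tested genes.

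The largest falls were those of PTTG1, CDC25B and NUF2, of which NUF2 did not pass once a relation to exon junctions, described below, was removed. PTTG1 was at 73.1 and 72.4 cpm in DU145-Esrrb and at 39.6 and 40.6 cpm in DU145-Esrrb+DY131 cells (-0.86 ± 0.08, adjusted p = 1.9e-07). CDC25B went from 215 and 198 cpm to 117 and 115 cpm (-0.83 ± 0.07, adjusted p = 1.66e-07). NUF2 went from 41.2 and 43.6 cpm to 27.6 and 25.5 cpm (-0.67 ± 0.10, adjusted p = 3.9e-05). NDC80, whose protein pairs with NUF2, fell as well (-0.66), as did TTK, the checkpoint kinase MPS1 (-0.63). With the junction offset NUF2 was at -0.17 and NDC80 at -0.12, neither of which passed.

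Members of the same role group did not all move alike. In the kinetochore group, NDC80 and NUF2, of 1 complex, both fell, CENPE and CENPF rose and CENPA, the centromeric histone, was at 0.06 ± 0.09. Among the mitotic kinases AURKA rose (0.43), TTK and BUB1 (-0.37) fell and PLK1 was at 0.12 ± 0.07, but with the junction offset BUB1 was at 0.088 (adjusted p = 0.271 in edgeR's fit) and PLK1 rose (0.22). Of the cyclin and CDC25 genes, CCNA2 (-0.35), CCNB2 (-0.46), CDC25B and CDC25C (-0.55) fell, whereas CCNB1 was at -0.02 ± 0.08 and CDK1 at 0.14 ± 0.08, and CDC25C did not pass with the offset (-0.21). In the passenger complex no gene fell, as CDCA8 (0.34), BIRC5 (0.31) and INCENP (0.26) rose and AURKB, its kinase, was at 0.04 ± 0.08. With the offset AURKB rose (0.40) and BIRC5 did not pass (0.07). ECT2 (-0.57), the exchange factor of the cleavage furrow, and HMMR (-0.29), a microtubule-associated protein, fell, and TOP2A (topoisomerase II alpha, 0.00 ± 0.06) did not pass. With the offset HMMR did not pass (-0.021) and TOP2A rose (0.32).

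**Figure D2:**
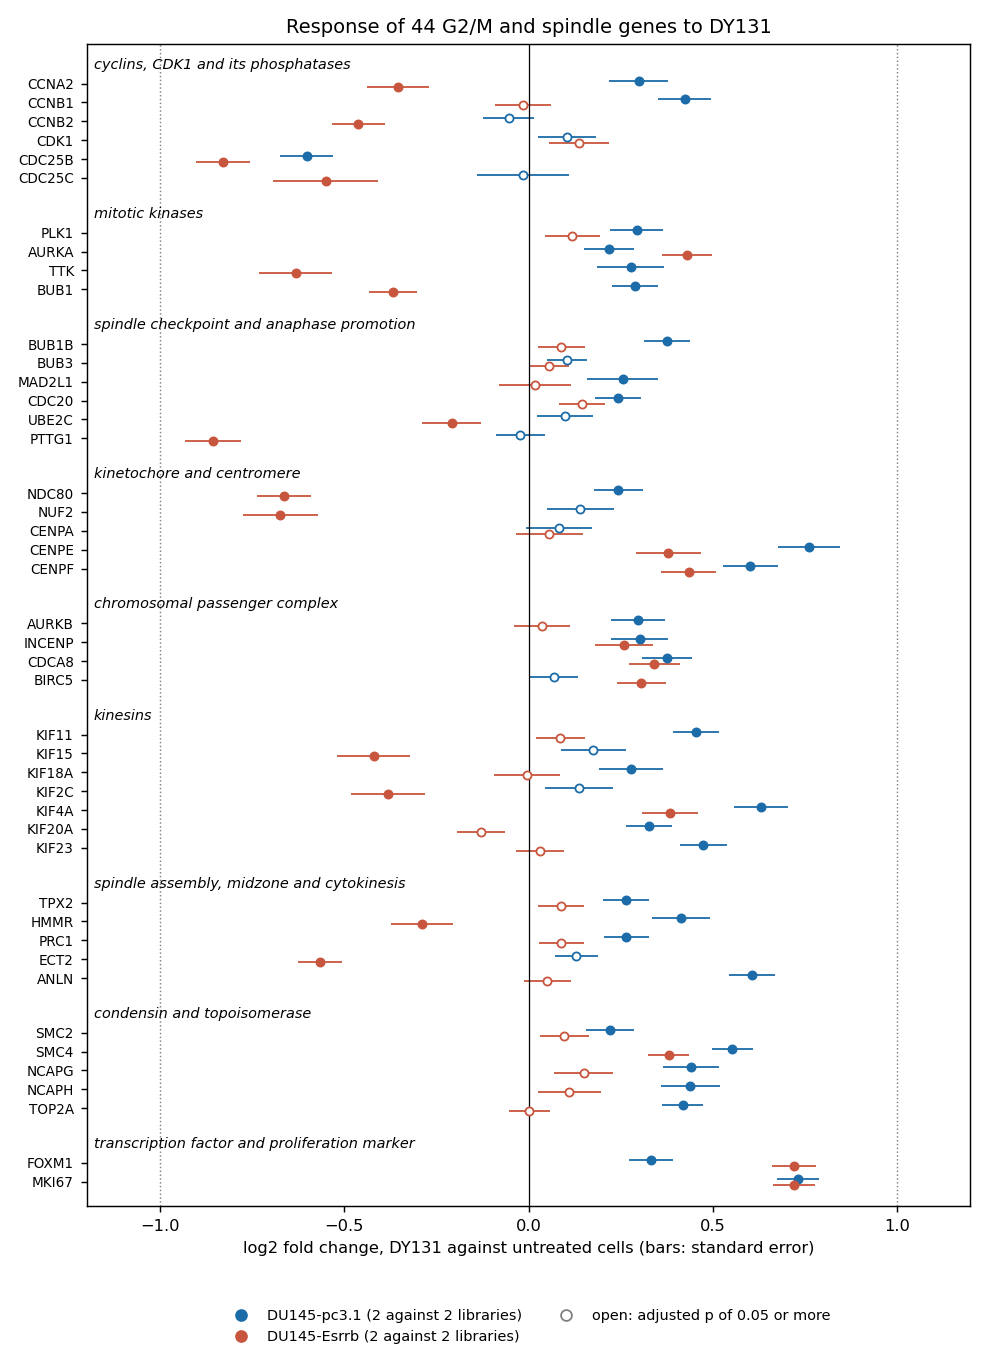
Log2 fold change after DY131 of the 44 members, by role, in DU145-pc3.1 (blue) and DU145-Esrrb cells (red), each from 2 treated against 2 untreated libraries with SE bars, where filled points passed at an adjusted p under 0.05. Blue points lie mostly right of 0, and 40 of the 44 red points lie left of the blue point of the same gene. The share of all tested genes for which this holds was not counted.

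The response in DU145-Esrrb cells lay lower than that in DU145-pc3.1 cells for 40 of the 44 members. The share of all tested genes for which it did was not counted. The median difference was -0.29 for the members and 0.0037 for all tested genes. It was -0.54 for the tenth of tested genes with the highest junction share, described below. The responses of the pools share no library. Across the 44 genes, which are not independent replicates, they correlated with Pearson's r of 0.64 and Spearman's rho of 0.52, so that the genes kept part of their order. Set side by side, 9 members (20.5%) rose in both pools and 1 (2.27%) fell in both, where 11.9% and 11.6% of all tested genes did. Those that rose in DU145-pc3.1 cells and did not pass in DU145-Esrrb cells were 17 (38.6% against 4.88% of all tested genes), and 5 rose in the first and fell in the second (11.4% against 2.08%). These 5 were CCNA2, TTK, BUB1, NDC80 and HMMR. A further 8 members (18.2% against 15.8%) fell in DU145-Esrrb cells and did not pass in DU145-pc3.1 cells, among them PTTG1 and NUF2, and the 9 that rose in both pools include AURKA, CENPE, CENPF, KIF4A, SMC4, FOXM1 and MKI67. All of these values are from the fit without the junction offset described below. With the offset, 14 members that had not passed in DU145-Esrrb cells rose there, and 8 that had fallen there did not pass. Of the 5 named above, CCNA2 and TTK still fell in DU145-Esrrb cells, and BUB1, NDC80 and HMMR did not pass. The response in DU145-Esrrb cells then lay lower for 31 members, with a median difference of -0.096 against 0.0055 for all tested genes.

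The test of the difference itself, the interaction of DY131 with Esrrb, passed for 23 members. In 22 the response was lower in DU145-Esrrb cells and in FOXM1 it was higher, where 17.6% of all tested genes passed as lower and 16.1% as higher. For the tenth of tested genes with the highest junction share, described below, the median difference was -0.54. The largest differences were those of TTK (-0.91 ± 0.13, adjusted p = 0.000121), NDC80 (-0.91 ± 0.10, adjusted p = 8.05e-06) and PTTG1 (-0.84 ± 0.10, adjusted p = 2.34e-05). The order changed with the junction offset described below. The lowest value was then -0.72, in the group of cyclins and CDC25 genes, and the lowest of the kinetochore group was -0.37. CENPF, MAD2L1 and MKI67 passed as lower only with the offset. TTK was at 60.1 and 65.9 cpm in DU145-pc3.1, 69.3 and 83.6 cpm in DU145-pc3.1+DY131, 62.9 and 69.3 cpm in DU145-Esrrb and 44.2 and 41.1 cpm in DU145-Esrrb+DY131 cells. It thus lay above its untreated libraries in one treated pool and below them in the other. FOXM1 differed by 0.39 ± 0.08 (adjusted p = 0.00262), with 177 and 188 cpm in DU145-pc3.1 and 222 and 238 cpm in DU145-pc3.1+DY131 cells. Of the interaction values 0 reached 1 in size in edgeR's fit, against 6.28% of all tested genes called altered. At an unadjusted p under 0.05 there were 31 members. The share of all tested genes at that threshold was not counted, so this count is no result about the members as a set.

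The DY131-treated pools were also compared with each other, a comparison that shares its libraries with the responses above. Of the 44 members 3 were higher and 27 lower in DU145-Esrrb+DY131 cells, against 25.1% and 25.3% of all tested genes, and the median of the members was -0.31. In all 2 members were called altered (8.21% of all tested genes were), NDC80 and PTTG1. With the junction offset described below, 0 members were called altered (6% of all tested genes were). NDC80 was at 126 and 130.9 cpm in DU145-pc3.1+DY131 and at 62.2 and 62.1 cpm in DU145-Esrrb+DY131 cells (-1.05 ± 0.07, adjusted p = 1.97e-08), after 103 and 114 cpm in DU145-pc3.1 and 95.5 and 102 cpm in DU145-Esrrb cells. PTTG1 was at 78.97 and 86.4 cpm in DU145-pc3.1+DY131 cells and at 82.7 and 85.1 cpm in DU145-pc3.1 cells (-1.04 ± 0.08 between the treated pools, adjusted p = 3.65e-08). The DU145-Esrrb+DY131 libraries were the lowest of the 8 for these genes. NDC80 lies on chromosome 18 from 2571511 to 2616635 and PTTG1 on chromosome 5 from 160421822 to 160428744 (GRCh38, GENCODE 29).

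HMMR had the next largest difference between the treated pools, with 152 and 183 cpm in DU145-pc3.1+DY131 and 91.7 and 87.9 cpm in DU145-Esrrb+DY131 cells (-0.90 ± 0.08, adjusted p = 5.04e-07). The 3 members that were higher in DU145-Esrrb+DY131 cells were FOXM1 (0.52 ± 0.06), AURKA and BIRC5. AURKA was at 198 and 213 cpm in DU145-pc3.1+DY131 and at 263 and 257 cpm in DU145-Esrrb+DY131 cells (0.34 ± 0.07, adjusted p = 0.000607). BIRC5 was at 209.8 and 237 cpm and at 266 and 268 cpm (0.26 ± 0.07, adjusted p = 0.00384). With the junction offset described below, BIRC5 was at -0.010 and did not pass (adjusted p = 0.917 in edgeR's fit).

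A property of the transcripts moved with the values of the DU145-Esrrb+DY131 libraries. A read that spans an exon junction must be mapped with a gap, so for each gene the possible 50-base reads of the mature transcript were scored for spanning one, giving a junction share. The members had a median share of 26.1%, against 14.4% for 13701 tested genes, and ranged from 3.62% (MAD2L1) to 36.9% (NDC80). Across all these genes the share correlated with the response to DY131 in DU145-Esrrb cells with Spearman's rho of -0.37, and in DU145-pc3.1 cells with 0.01. Among the 44 members rho was -0.55 and -0.14. With the tested genes in 10 groups of like size by junction share, in the group with the highest share, the median response in DU145-Esrrb cells was -0.55 and that of the 7 members in it -0.42. In the group next to it, the medians were -0.30 for all genes and 0.02 for 16 members. For the interaction, rho was -0.46 across all genes and -0.66 among the members. Its medians were -0.54 for all genes and -0.66 for members in the highest group, and -0.30 and -0.39 in the next. Between the treated pools, rho was -0.47 and -0.64. The medians there were -0.55 and -0.73 in the highest group, and -0.30 and -0.42 in the next. In both of the DU145-Esrrb+DY131 libraries, group and junction relation coincide, so they cannot be told apart by design.

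**Figure D3:**
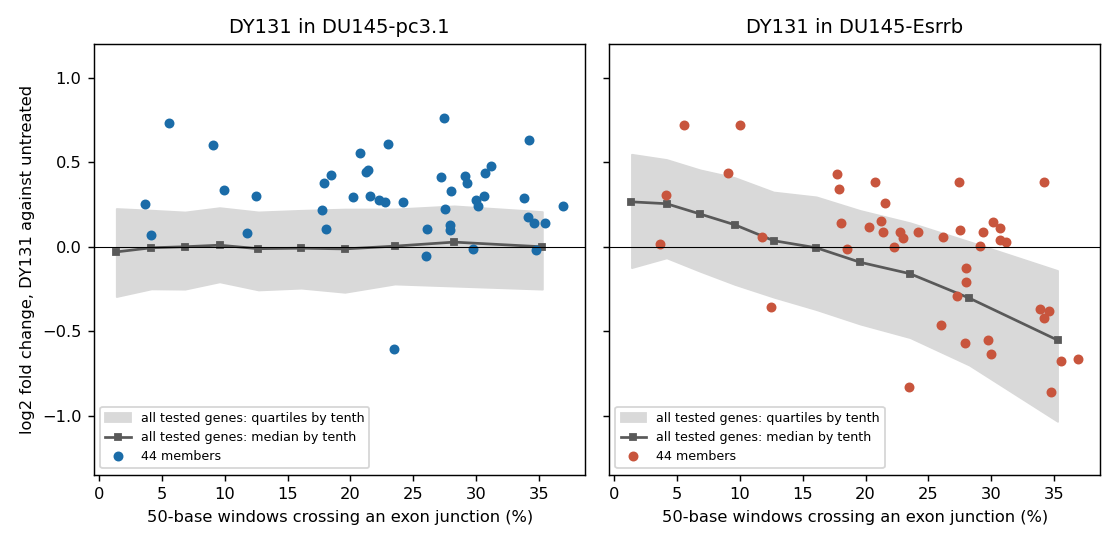
Log2 fold change after DY131 against the share of 50-base windows that cross an exon junction (percent), for DU145-pc3.1 (left) and DU145-Esrrb cells (right), with the 44 members as points and all tested genes as median and quartiles in 10 groups by share. The grey line is flat on the left and falls from 0.27 to -0.55 on the right, where most members lie above it.

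With an offset that removes this relation across all genes, the members read differently in DU145-Esrrb cells. Of the 44 members 23 rose and 6 fell (27.5% and 26% of all tested genes), and the median was 0.21. The members that still fell were CDC25B (-0.65), CCNA2 (-0.41), PTTG1 (-0.38), TTK (-0.29), ECT2 (-0.28) and CCNB2 (-0.23). NDC80 was at -0.12 ± 0.07 and NUF2 at -0.17 ± 0.11, which did not pass. The interaction with this offset passed for 11 members as lower and 1, FOXM1, as higher (11.6% and 10.6% of all tested genes), and 8 of the 22 lower before were among the 11. Between the treated pools 4 were higher and 14 lower (19.3% and 19% of all tested genes) and 0 were called altered in edgeR's fit, with NDC80 at -0.50 ± 0.07 and PTTG1 at -0.55 ± 0.08. In DU145-pc3.1 cells the offset left the counts at 31 rising and 1 falling (19.7% and 18% of all tested genes).

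The rest of the cell cycle program was looked at in lists chosen by function, whose counts stand against 18.9% of all tested genes rising and 18.5% falling in DU145-pc3.1 cells, and 29.2% and 29.5% in DU145-Esrrb cells (27.5% and 26% with the junction offset). Of 77 other mitotic genes 41 rose and 4 fell after DY131 in DU145-pc3.1 cells (median 0.24), and 26 rose and 21 fell in DU145-Esrrb cells (median 0.0077), or 31 and 6 with the offset (median 0.15). In DU145-pc3.1 cells CASC5, the kinetochore scaffold KNL1, rose by 0.88 ± 0.07. In DU145-Esrrb cells SPC24, another subunit of the NDC80 complex, fell from 9.08 and 7.91 cpm to 1.69 and 2.49 cpm (-2.001 ± 0.23, adjusted p = 3.18e-06, and -2.15 with the junction offset), whereas its partner SPC25 was at 0.05 ± 0.16 (adjusted p = 0.82). MAD2L2, an inhibitor of the anaphase-promoting complex, fell as well (-1.21, and -0.36 with the offset).

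Of 26 genes of the anaphase-promoting complex and cohesin, 15 rose and 3 fell in DU145-pc3.1 cells (median 0.23), and 8 rose and 8 fell in DU145-Esrrb cells (30.8% each, median 0.021), or 14 and 4 with the offset (median 0.20). Of 44 G1/S genes, 29 rose and 0 fell in DU145-pc3.1 cells in edgeR's fit (median 0.32), led by CLSPN, a checkpoint adaptor at replication forks, at 1.07 ± 0.08. In DU145-Esrrb cells 23 of them rose and 8 fell (median 0.22), or 25 and 6 with the offset, the falls led by POLE2, a subunit of DNA polymerase epsilon, at -1.97 ± 0.12 and at -1.12 with the offset.

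Among 31 regulators of the G2/M program, 10 rose and 6 fell in DU145-pc3.1 cells, and 12 rose and 8 fell in DU145-Esrrb cells, or 16 and 4 with the offset. CDKN1A, the CDK inhibitor p21, was at 63.7 and 63.3 cpm in DU145-pc3.1, 87.5 and 70.8 cpm in DU145-pc3.1+DY131, 56.1 and 51.2 cpm in DU145-Esrrb and 113 and 117 cpm in DU145-Esrrb+DY131 cells. It rose in both pools, by 0.32 ± 0.09 (adjusted p = 0.01) and by 1.10 ± 0.09 (adjusted p = 7.13e-08), and the interaction was 0.78 ± 0.13 (adjusted p = 0.00026). The paper reports from qPCR that the regulation of p21 mRNA needed Esrrb together with DY131. E2F7, a repressor of E2F targets, rose in both pools (1.19 ± 0.11 and 0.96 ± 0.12). CHEK2, the checkpoint kinase CHK2, fell in both pools (-0.60 and -1.69), and the value in DU145-Esrrb cells was -1.11 with the offset.

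KIFC1, a minus-end-directed kinesin that bundles spindle microtubules, differed from the other members in level as much as in response. The deposited table lists 3 and 5 reads in DU145-pc3.1, 1 and 2 in DU145-Esrrb, 4 and 2 in DU145-pc3.1+DY131 and 15 and 15 in DU145-Esrrb+DY131 cells. It passed the filter on low counts only through the last group, so a difference there was needed for it to be listed at all. In cpm per kb its mean was 0.13 in DU145-pc3.1 cells, where the lowest of the other members, KIF15, was at 6.67. After DY131 its pooled level in DU145-Esrrb cells was 13.7-fold that of untreated cells with a 95% counting interval of 4.27 to 70.2, from 30 reads against 3. In DU145-pc3.1 cells the ratio was 0.788 with an interval of 0.225 to 2.59, from 6 reads against 8. The exact intervals cover counting error only, and since KIFC1 was set apart for this difference they describe the precision of the ratios and are no test of it.

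KIFC1 lies on chromosome 6 from 33391536 to 33409924 on the plus strand (GRCh38), and its neighbours were looked at after its values were seen. Of the 25 other protein-coding genes of the table within 400 kb, 15 were listed at 0 reads in all 8 libraries, among them RPS18, a ribosomal protein gene that every cell uses. A further 7 had between 1 and 15 reads in their highest library, and only BAK1, ITPR3 and LEMD2 had over 300 reads in each library. DAXX (8 and 4 reads) and ZBTB9 (12 and 15 reads) were also highest in the DU145-Esrrb+DY131 libraries, where the other 6 libraries had at most 3 and 5 reads. PHF1, next to KIFC1, went the other way, with 3 to 13 reads in the other libraries and 0 in both DU145-Esrrb+DY131 libraries. What holds the counts of this region low was not tested, and the hg18 assembly with its alternate haplotypes of chromosome 6 was not analysed here.

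**Figure D4:**
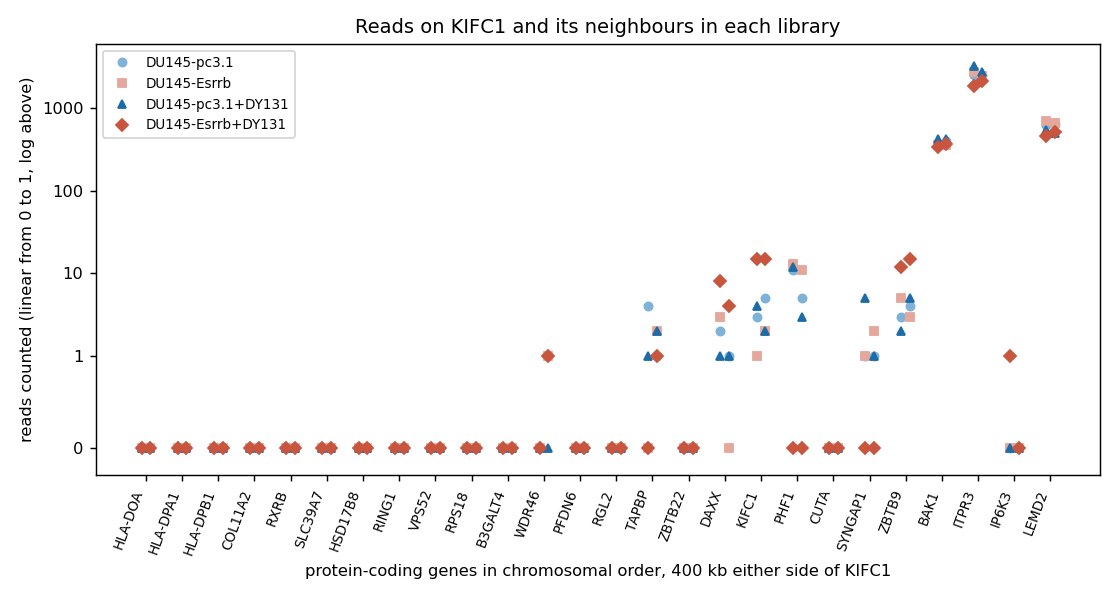
Reads counted in each of the 8 libraries (symbols by group, axis linear from 0 to 1 and log above) on KIFC1 and the protein-coding genes within 400 kb, in chromosomal order. Most genes lie at 0, KIFC1 has 15 reads in each DU145-Esrrb+DY131 library, and BAK1, ITPR3 and LEMD2 have over 300 in each library.

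The 5 tested genes whose group means were most like those of KIFC1, by distance of centred log2 cpm over the 4 groups among 1625 genes of a similar level, were LOC100129617, HSPA1B, NBPF11, NBPF24 and LOC613037. Their distances ranged from 0.45 to 0.50 on the log2 scale. Like KIFC1, all of them but LOC613037 passed the filter on low counts only through the DU145-Esrrb+DY131 libraries. The filter thus favours genes that are high in that group, and the likeness is no evidence of a shared response. HSPA1B, a heat shock protein gene with a near-identical copy, had 12 and 10 reads in the DU145-Esrrb+DY131 libraries and at most 4 elsewhere. NBPF11 and NBPF24 carried the same counts in all 8 libraries, 12 and 10 in the DU145-Esrrb+DY131 libraries.

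Reads that fit several genes add uncertainty for some members. The share of 50-base windows also found in transcripts of another gene on either strand was 86.5% for PRC1, 35.2% for NCAPG, 33.5% for SMC4, 20.01% for FOXM1 and 15.1% for KIF4A, and under 10% for the others, so the changes of these 5 are uncertain. With the first 4 left out, 27 of 40 members rose in DU145-pc3.1 cells and the only member with a higher interaction, FOXM1, is lost.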

How the data were processed

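Libraries were stranded, from polyadenylated RNA, and sequenced single-end over 50 bases. The authors deposited raw counts per gene, made with MULTICOM-MAP after trimming (FASTX-Toolkit) and alignment to hg18 (TopHat2); its treatment of strand and of reads that fit several genes is not given in the sources used here. All 8 libraries entered 1 model in edgeR 4.0.16 (R 4.3.3), with genes at 1 cpm or more in at least 2 libraries, TMM scaling and the quasi-likelihood F test with Benjamini-Hochberg adjustment. Alternatives included DESeq2 1.42.0 and edgeR's exact test, and the steps were tested on simulated data. Transcript properties came from GENCODE 29 on GRCh38. With 2 libraries a group, p-values measure the spread between these libraries. The members and lists were chosen with earlier results of these data known. Values in every library are given for KIFC1, for members called altered and for the 3 largest passing rises and falls in a comparison, and genes outside the set come from lists chosen by function. The replicate numbers of the DU145-Esrrb+DY131 samples could not be matched to their 2 columns, which share a heading. In the other 6 libraries those with the same number in the sample title did not deviate together.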

Additional observations from a re-analysis of the deposited data

Results flagged for a closer look

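The response to DY131 differed between the pools, by the interaction term of edgeR's fit at an adjusted p under 0.05, for 23 members. Values are the response in DU145-Esrrb minus that in DU145-pc3.1 cells on the log2 scale. It was higher in DU145-Esrrb cells for FOXM1 (0.39). It was lower by the most for TTK (-0.91), NDC80 (-0.91), PTTG1 (-0.84) and NUF2 (-0.81). It was also lower for HMMR (-0.70), ECT2 (-0.70), BUB1 (-0.66), CCNA2 (-0.65), KIF15 (-0.60), ANLN (-0.56), CDC25C (-0.54), KIF2C (-0.52), KIF20A (-0.46), KIF23 (-0.44), CCNB1 (-0.44), TOP2A (-0.42) and CCNB2 (-0.41). The smallest differences that passed were those of CENPE (-0.38), KIF11 (-0.37), NCAPH (-0.33), UBE2C (-0.31) and BUB1B (-0.29). With the junction offset, 8 of the 22 lower ones and FOXM1 passed in the same direction. The other 14 did not pass with it. The flags rest on a test across all genes, where 17.6% of tested genes passed as lower. The median difference was -0.54 for the tenth of tested genes with the highest junction share.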

How the results depend on the processing

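The rise of the members after DY131 in DU145-pc3.1 cells kept its direction in every alternative, with 20 to 35 rising (20 without DU145-pc3.1 replicate 1) and 1 falling when single libraries were left out. In DU145-Esrrb cells 9 to 12 rose and 12 to 15 fell. Between the treated pools 3 to 4 were higher, 23 to 31 lower and 1 to 3 called altered (1 without DU145-pc3.1+DY131 replicate 2). The interaction passed as lower for 17 to 29 and as higher for 1 to 3 members (2 without DU145-pc3.1 replicate 1, 3 without DU145-pc3.1+DY131 replicate 2, 2 with no filter, 0 without the 4 members that share windows), and 0 to 1 were called altered. For Esrrb against control 0 to 5 fell and 0 to 3 rose: 0 fell without either DU145-Esrrb library, without either DU145-Esrrb+DY131 library and without DU145-pc3.1 replicate 2, 1 without DU145-pc3.1 replicate 1, and 5 fell with 3 or 2 rising without DU145-pc3.1+DY131 replicate 1 or 2. In that comparison 1 fell with DESeq2 and with the junction offset, and 5 fell and 1 rose with only the 4 libraries compared.

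The junction offset also changed the counts of the other 3 comparisons that involve DU145-Esrrb+DY131 libraries: in DU145-Esrrb cells 23 rose and 6 fell, between the treated pools 14 were lower and 0 called altered (also 0 with the offset for length and GC content), and the interaction was lower for 11. It turned the sign of BUB1 (0.088), KIF15 (0.043), KIF2C (0.094), UBE2C (0.079) and CDKN3 (0.11) after DY131 in DU145-Esrrb cells, of BIRC5 (-0.010), BUB1B (0.11), BUB3 (0.15), CDC20 (0.29), KIF4A (0.18) and SMC2 (0.029) between the treated pools, and of BUB1B (0.043) and NCAPH (0.039) in the interaction. UBE2C was at 0.030 with the length and GC offset. At a 1.5-fold threshold, 6 members were altered by DY131 in DU145-pc3.1 cells (11.5% of all tested genes were), 7 in DU145-Esrrb cells (27.8%), 11 between the treated pools (20.2%) and 9 in the interaction (16.4%).

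A replicate block by the numbers in the sample titles was fitted to the 6 libraries that could be matched to a title. With it, 2 members fell and 0 rose for Esrrb against control (0 fell without the block). After DY131 in DU145-pc3.1 cells 31 rose and 1 fell (30 and 1 without it). Deviations of libraries with the same title number correlated with 0.09, 0.02 and -0.07, so these numbers showed no pairing. The numbers in the column headings differ from those in the titles for some libraries, and a pairing by the headings was not examined. No paired analysis was possible because the 2 DU145-Esrrb+DY131 columns share a heading and could not be matched to their numbered samples, for the other 3 comparisons. The 44 members had at least 93 reads in each library, whereas KIFC1 had 1 to 15, which limits the precision of its values.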
